A study of Mus musculus with 16 samples.

Results

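The 34 genes described here are markers and effector genes of macrophages and other myeloid cells, listed by symbol and found through their Entrez identifiers among the 24467 genes of each of 16 bulk RNA-seq libraries. All 34 were in the files, and all 34 passed the filter on low counts that left 15963 genes for testing. They were grouped by role into complement C1q (3 genes), the lineage factor and the CSF1 receptor (2), leukocyte signalling and Fc receptors (6), receptors and secreted factors of resident-type macrophages (7), lipid-associated genes (3), monocyte and adhesion receptors (4), lysosomal and antimicrobial genes (5) and MHC class II (4). A subset of 24, without Apoe, Gpnmb, Cd14, Cd68, Lyz2, Ctss and the class II genes, is called myeloid-restricted below as a short name. Some of its members are also made by other blood cells, as Ptprc and Laptm5 are, or by megakaryocytes, as Pf4 is.

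The libraries came from mouse pancreatic ductal adenocarcinoma cells of the KPC type that carried a 7TCF-eGFP reporter and a construct labelled Porcn-DMA. The cells were grown as tumours in the pancreas of host mice, dissociated, and sorted by reporter fluorescence into 4 groups of 4 libraries, with 4 mice per group in the study's design. The groups are DP (positive for GFP and mScarlet), GFP (GFP alone), mScarlet (mScarlet alone) and DN (negative for both). All groups share the same engineered line and differ only in the sort gate, with no treatment or time named. The 7TCF-eGFP reporter places GFP under TCF binding sites, and GFP is thus meant to mark cells responding to WNT, and the design names a WNT-secreting population that is taken here as the mScarlet gate. The question put to these samples is how WNT-responsive and WNT-secreting cancer cells differ. The labels describe the sorted cells as cancer cells and name no gate on a leukocyte marker, and the sources used here do not give the host strain or the make-up of Porcn-DMA.

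Macrophages of solid tumours derive from blood monocytes and from resident cells of the organ, and in pancreatic cancer they are among the most abundant leukocytes. Their development depends on the transcription factor PU.1 and on signalling through the CSF1 receptor. Mature tissue macrophages secrete the chains of complement C1q, take up apoptotic cells, lipids and matrix through scavenger receptors, degrade the cargo in lysosomes, and present peptides on MHC class II, which inflamed epithelial cells can also express.

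The promoters of 5 members are shown, each chosen with a motif that it holds. They belong to genes with different ranges over the libraries. The highest and lowest libraries were 156-fold apart for C1qb and 23.8-fold for Pf4, a chemokine, and under 5-fold for the class II genes. Each is the 250 bases before the annotated gene start in RefSeq (GRCm38.p6), written 5′ to 3′ on the gene's own strand, where RefSeq's table held an entry for 26 of the 34 members. In C1qb, C1qc and Pf4 the capitals mark GAGGAA or its reverse complement TTCCTC, core letters that PU.1 is known to bind. In the class II genes H2-Aa and H2-Eb1 they mark CTGATTGG, letters of the Y box of class II promoters.
C1qb promoter, chr4:136886201-136886450, minus strand: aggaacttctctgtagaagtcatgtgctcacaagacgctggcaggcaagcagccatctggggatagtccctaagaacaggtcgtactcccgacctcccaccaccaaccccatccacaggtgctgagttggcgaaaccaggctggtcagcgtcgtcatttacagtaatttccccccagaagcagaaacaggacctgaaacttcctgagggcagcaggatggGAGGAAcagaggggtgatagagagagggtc
C1qc promoter, chr4:136892915-136893164, minus strand: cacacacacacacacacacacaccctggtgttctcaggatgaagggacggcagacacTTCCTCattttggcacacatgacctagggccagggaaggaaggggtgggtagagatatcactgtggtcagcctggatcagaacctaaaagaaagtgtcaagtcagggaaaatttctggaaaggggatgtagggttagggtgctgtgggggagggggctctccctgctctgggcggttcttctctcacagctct
Pf4 promoter, chr5:90772185-90772434, plus strand: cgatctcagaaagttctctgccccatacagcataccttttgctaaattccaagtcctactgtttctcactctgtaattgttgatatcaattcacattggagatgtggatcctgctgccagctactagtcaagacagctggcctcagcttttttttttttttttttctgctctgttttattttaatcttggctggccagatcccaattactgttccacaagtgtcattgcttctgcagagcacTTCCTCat
H2-Aa promoter, chr17:34287824-34288073, minus strand: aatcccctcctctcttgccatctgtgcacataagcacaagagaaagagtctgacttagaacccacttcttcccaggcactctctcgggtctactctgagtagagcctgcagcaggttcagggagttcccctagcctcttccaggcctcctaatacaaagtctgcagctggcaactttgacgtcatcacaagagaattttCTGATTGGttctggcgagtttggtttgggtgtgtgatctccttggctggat
H2-Eb1 promoter, chr17:34305617-34305866, plus strand: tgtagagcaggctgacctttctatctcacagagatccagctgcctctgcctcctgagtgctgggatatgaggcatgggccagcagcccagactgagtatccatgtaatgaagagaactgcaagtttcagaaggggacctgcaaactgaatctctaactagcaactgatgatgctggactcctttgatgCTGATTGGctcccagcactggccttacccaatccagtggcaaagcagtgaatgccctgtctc
On either strand, GAGGAA stood in 14 of the 26 member promoters (53.8%) and in 23.1% of all 27025 promoters of the same length. CTGATTGG stood in 2 of the 26 (7.7%), both class II genes, and in 4.1% of all promoters. The match in C1qb lay 30 to 25 bases before the start, that in Pf4 8 to 3 bases and that in C1qc 193 to 188 bases before it. The Y box letters lay 51 to 44 bases before the start of H2-Aa and 62 to 55 bases before that of H2-Eb1. The 2 motifs do not overlap each other, and the matches are a description of these letters and not evidence of binding.

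Each library held 80647185 to 104273669 counts, so that 3 counts, used as the floor of detection, were worth 0.0288 to 0.0372 CPM (counts scaled to library size by TMM). Among 12 epithelial markers, the most abundant were Krt19 and Krt8, keratins of ductal epithelium. They averaged 8309 to 12457 and 7729 to 10563 CPM in the 4 groups, which fits the labelled cell type. Other markers of this list were at 0 in some libraries, with 3 at 0 in mScarlet 1, 2 in DN 2 and 0 in DN 1. A pair of GFP libraries stood apart before any comparison. GFP 1 had the highest sum of the 34 genes (55019.7 CPM, 5.37% of its counts), the highest erythroid sum (4611 CPM, against 0.0567 to 642 CPM in the other libraries) and the lowest epithelial sum (16619 CPM, against 28411 to 48074 CPM). GFP 4 had the highest acinar sum (31964 CPM) and the highest fibroblast sum (15438 CPM), and one of the lowest myeloid levels. Fitted values of single members, and medians over the 34, in GFP vs DN and GFP vs mScarlet are therefore given without GFP 1 as well. In bulk RNA, fewer cells of a type and less RNA per cell cannot be told apart, and the part played by other cell types in the results below was not tested.

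The 34 genes were present in every group, and their level differed between libraries of 1 gate as well as between gates. Their summed level was 10177 to 23930 CPM in DP, 7988 to 55019.7 CPM in GFP, 6857 to 13533 CPM in mScarlet and 6837 to 12000.1 CPM in DN libraries. The mean of log2(CPM + 1) over the genes was 7.01, 5.61, 5.39 and 6.42 in DP libraries 1 to 4, 8.48, 6.12, 6.12 and 4.30 in GFP, 4.62, 3.75, 3.52 and 5.31 in mScarlet, and 6.02, 3.56, 4.56 and 3.83 in DN. All 4 DP libraries lay above all 4 mScarlet libraries, whereas the GFP and DN libraries overlapped through GFP 4 and DN 1. GFP 1 was the highest library for 32 of the 34 genes, and DP 4 for the other 2, Pf4 and Cd74. With GFP 1 set aside, DP 1 was highest for 23 and DP 4 for 7. The lowest library was DN 2 for 11 genes and mScarlet 3 for 11. In GFP 4, 31 of the 34 genes were lower than in DN 1, the double-negative library with the most myeloid RNA.

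**Figure D1:**
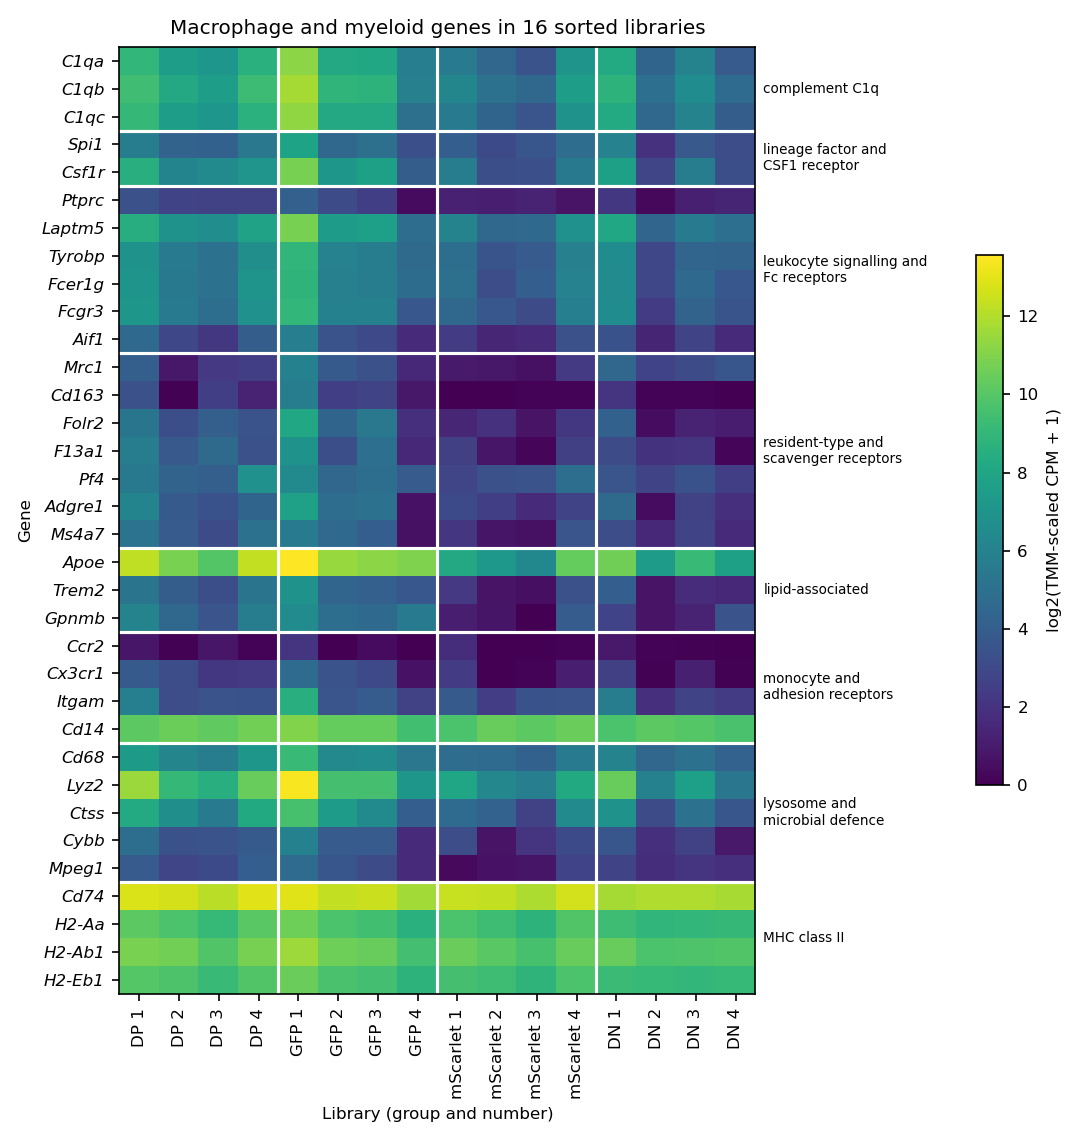
Level of each of the 34 genes (rows, grouped by role) in each library (columns, grouped as DP, GFP, mScarlet and DN), as log2(CPM + 1). The GFP 1 column is the brightest for 32 genes, the class II rows and Cd14 are bright in every column, and Ccr2 is dark throughout.

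The main test was edgeR's quasi-likelihood test with the group as the only term and Benjamini-Hochberg adjustment over all 15963 genes. By this test no member passed an adjusted p of 0.05 in any of the 9 comparisons. In GFP vs DN and in DP vs mScarlet the background was 0% as well, since no gene at all was called. All 34 genes had a positive fitted log2 fold change in GFP vs DN (52.3% of all genes did), with a median of 2.45 beside 0.02 over all genes, and 21 had an unadjusted p under 0.05 in that direction (6.3% of all genes). The lowest adjusted p there was 0.40, for Cd68. In DP vs mScarlet 33 were positive (49.1% of all genes), with a median of 2.17 beside -0.01 over all genes, and 11 had an unadjusted p under 0.05 (2.03%). Groups that did not overlap were found for 3 members in GFP vs DN (Pf4, Apoe and Gpnmb, 1.82% of all genes) and for 11 in DP vs mScarlet (C1qa, C1qc, Csf1r, Ptprc, Folr2, F13a1, Adgre1, Cd68, Lyz2, Cybb and Mpeg1, 1.83% of all genes), all higher in the GFP-positive gate. DESeq2 called 3 members higher in GFP vs DN (Folr2, Pf4 and Cd68, against 1.59% of all genes) and 0 in DP vs mScarlet (0.318%), and limma voom called 0 in both, where it called 0.0125% and 0% of all genes. Without GFP 1 the median in GFP vs DN was 0.98 with 30 positive, and without DN 1 it was 3.76, so that 2 libraries moved it in opposite directions. Without GFP 4 this median was 2.78, and without GFP 1 and GFP 4 together 1.41. The median in DP vs mScarlet ran from 1.67 without DP 1 to 2.52 without mScarlet 4.

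When the GFP-positive gates (DP and GFP) were averaged and set against the GFP-negative gates (mScarlet and DN), all 34 genes were positive (50.9% of all genes), with a median of 2.20, and 29 had an unadjusted p under 0.05 (6.79% of all genes in that direction). None was called by edgeR (0% of all genes), whose lowest adjusted p was 0.242, whereas DESeq2 called 15 (2.05% of all genes). Limma voom called 0 members (0.00626% of all genes). Without GFP 1 the median over the 34 genes was 1.64, with 33 positive. No member's 8 GFP-positive libraries all lay above its 8 GFP-negative ones (0.0188% of all genes). The difference between the effects of GFP with and without mScarlet had a median of -0.39 over the members, called for 0 of 34 by edgeR (0% of all genes) and by DESeq2 (0.258%), and at an unadjusted p under 0.05 for 0 (3.29%). This median ran from -1.71 without DN 1 to 1.08 without GFP 1, so its sign was set by single libraries.

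**Figure D2:**
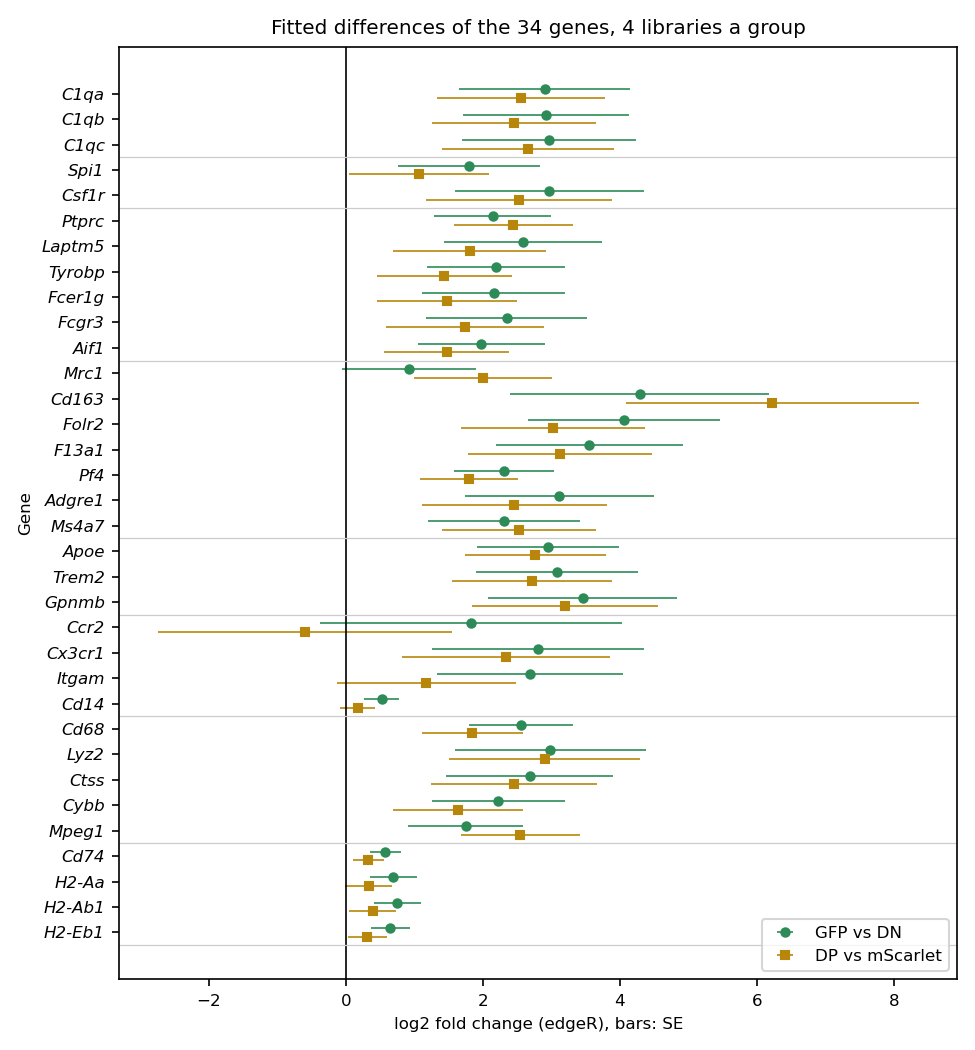
Fitted log2 fold change of each gene in GFP vs DN (circles) and DP vs mScarlet (squares), with bars of 1 SE, 4 libraries per group. Nearly all points lie right of 0, those of Cd14 and the class II genes closest to it, and the bars of Cd163 and Ccr2 are the longest.

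The C1q chains kept close to the same proportions to each other across libraries. C1qa, C1qb and C1qc encode the recognition part of the classical complement pathway and are secreted by tissue macrophages. C1qb had 683, 291, 187 and 626 CPM in DP libraries 1 to 4 and 3388, 464, 427 and 59.9 CPM in GFP, against 72.7, 33.4, 21.7 and 193 CPM in mScarlet and 440.3, 29.4, 95.3 and 25.5 CPM in DN. DP libraries were all high, 3 of the 4 GFP libraries were high, and DN 1 and mScarlet 4 reached the range of the GFP-positive gates, where GFP 4 was low. The fitted log2 fold change of C1qb was 2.92 (SE 1.22, adjusted p = 0.48) in GFP vs DN and 2.46 (SE 1.19, adjusted p = 1.0) in DP vs mScarlet. That of C1qa was 2.90 and that of C1qc 2.96 in GFP vs DN, with SEs of 1.24 and 1.27. Without GFP 1 the values in GFP vs DN were 1.10 for C1qb, 1.02 for C1qa and 0.997 for C1qc. The ratio of C1qb to C1qa was 1.11 to 2.11 over all libraries and that of C1qc to C1qa 0.565 to 1.16, while C1qb itself varied 156-fold. GFP 4 held the lowest value of both ratios.

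Spi1 and Csf1r, which encode PU.1 and the receptor for the growth factors CSF1 and IL-34, followed the same libraries. Csf1r had 366, 69.6, 86.5 and 134 CPM in DP libraries and 1756, 142, 207 and 15.2 CPM in GFP, against 50.6, 8.47, 8.96 and 44.4 CPM in mScarlet and 211, 6.21, 53.1 and 8.73 CPM in DN. The lowest DP library exceeded the highest mScarlet library, and GFP and DN overlapped. For Csf1r the log2 fold change was 2.97 (SE 1.38) in GFP vs DN and 2.53 (SE 1.35) in DP vs mScarlet, neither called. The value of Csf1r in GFP vs DN was 0.80 without GFP 1. Csf1r has an exon that overlaps Hmgxb3 on the opposite strand, so without a stated strand a part of its reads may belong to that gene. Spi1 had 17.7 to 52.4 CPM in DP, 8.76 to 236 CPM in GFP, 7.39 to 27.3 CPM in mScarlet and 2.86 to 64.2 CPM in DN. Its log2 fold change in GFP vs DN was 1.80 (SE 1.04), and -0.091 without GFP 1.

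Among the 6 leukocyte signalling genes, Ptprc was the scarcest. It encodes CD45, the phosphatase on the surface of nearly all nucleated blood cells. It had 9.37, 5.79, 5.08 and 5.44 CPM in DP and 16.8, 7.79, 4.73 and 0.296 CPM in GFP libraries, against 1.37, 1.19, 1.47 and 0.641 CPM in mScarlet and 3.67, 0.207, 1.32 and 1.66 CPM in DN. DP lay apart from mScarlet and from DN, and GFP did not, because of GFP 4. In the fit Ptprc stood at a log2 fold change of 2.45 (SE 0.86, unadjusted p = 0.012) in DP vs mScarlet and 2.15 (SE 0.85) in GFP vs DN (1.31 without GFP 1), not called in either. Laptm5, a lysosomal protein of blood cells, reached 1751 CPM in GFP 1 and had 20.6 to 353 CPM elsewhere. Tyrobp and Fcer1g, signalling adaptors of activating receptors, had 6.49 to 485 and 6.39 to 452 CPM over the 16 libraries. Fcgr3, an IgG receptor, had 4.29 to 511 CPM and Aif1, the actin-binding protein IBA1, 1.65 to 54.7 CPM, all lowest in DN 2 and highest in GFP 1. The medians of this group were 2.18 in GFP vs DN and 1.61 in DP vs mScarlet on the log2 scale.

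**Figure D3:**
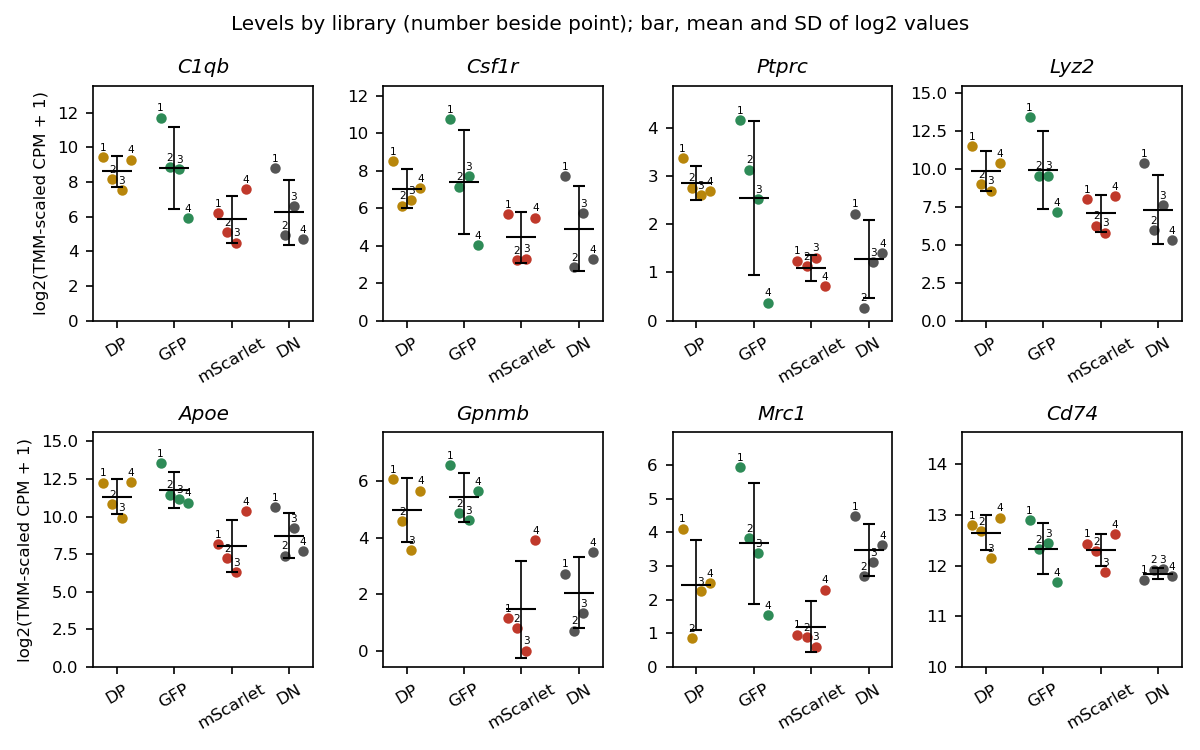
Levels of 8 members as log2(CPM + 1) for each library (points, labelled with the library number) in DP, GFP, mScarlet and DN, with bars for the mean and SD of the log2 values of 4 libraries. C1qb, Csf1r and Lyz2 are highest in GFP 1 within GFP and in DN 1 within DN, Gpnmb keeps GFP 4 high, Mrc1 keeps DN above mScarlet, and the Cd74 axis starts at 10 because its values are narrow.

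The 7 receptors and secreted factors of resident-type macrophages had a median log2 fold change of 3.12 in GFP vs DN and 2.52 in DP vs mScarlet. Cd163 takes up haemoglobin bound to haptoglobin. Cd163 had 9.37, 0.0377, 4.64 and 1.43 CPM in DP and 50.1, 4.64, 5.95 and 0.815 CPM in GFP libraries, against 0, 0, 0.0997 and 0.0978 CPM in mScarlet and 3.06, 0.0982, 0.0781 and 0 CPM in DN. All GFP libraries exceeded all mScarlet libraries, and DP 2 and DN 1 were the exceptions within their gates. For Cd163 the fitted log2 fold change was 4.29 (SE 1.89) in GFP vs DN, 6.22 (SE 2.14) in DP vs mScarlet and 8.24 (SE 2.31, adjusted p = 0.080) in GFP vs mScarlet, values that depend on how few counts the mScarlet and DN libraries held. Without GFP 1 it was 2.23 in GFP vs DN and 6.21 in GFP vs mScarlet. Folr2, a folate receptor of resident macrophages, had 38.0, 8.48, 16.4 and 10.2 CPM in DP and 264.5, 20.01, 42.1 and 2.53 CPM in GFP, against 1.75, 2.82, 0.643 and 3.66 CPM in mScarlet and 17.3, 0.382, 1.56 and 1.03 CPM in DN. DP was above mScarlet without overlap. Its log2 fold change was 4.06 (SE 1.40) in GFP vs DN (2.08 without GFP 1) and 3.03 (SE 1.35) in DP vs mScarlet, and an antisense gene, Gm10602, overlaps its exons.

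F13a1, the A chain of coagulation factor XIII, had 9.28 to 50.1 CPM in DP and 0.155 to 5.04 CPM in mScarlet libraries, with no overlap and a log2 fold change of 3.13 (SE 1.34). An antisense gene, Gm30489, overlaps its exons. Adgre1, which encodes F4/80, had 9.49 to 68.6 CPM in DP, 0.568 to 216 CPM in GFP, 2.18 to 7.22 CPM in mScarlet and 0.371 to 24.6 CPM in DN. Ms4a7, a membrane protein of macrophages, reached 47.2 CPM in GFP 1 and was at 0.51 CPM in mScarlet 3 and 0.519 CPM in GFP 4. Pf4, the chemokine CXCL4 made by megakaryocytes and some macrophages, was highest in DP 4 and not in GFP 1. It had 43.1, 19.1, 16.04 and 114 CPM in DP and 87.9, 21.2, 28.4 and 13.6 CPM in GFP, against 6.14, 9.17, 10.1 and 29.1 CPM in mScarlet and 11.0, 5.83, 9.57 and 4.80 CPM in DN. Every DP and every GFP library exceeded every DN library. The log2 fold change of Pf4 was 2.63 (SE 0.74, adjusted p = 0.086) in DP vs DN and 2.31 (SE 0.73, adjusted p = 0.42) in GFP vs DN, where it was 1.43 without GFP 1.

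Mrc1, the mannose receptor CD206, did not follow the other genes. It had 16.3, 0.805, 3.78 and 4.63 CPM in DP and 60.5, 13.2, 9.40 and 1.93 CPM in GFP, against 0.952, 0.865, 0.521 and 3.93 CPM in mScarlet and 21.4, 5.50, 7.63 and 11.3 CPM in DN. All 4 mScarlet libraries lay below all 4 DN libraries (6.57% of all genes were apart in that direction), and Mrc1 was the only member with a negative fitted value in DP vs DN. Its log2 fold change was -2.84 (SE 1.04, adjusted p = 0.22) in mScarlet vs DN, and DESeq2 called it lower there (5.34% of all genes). In the mScarlet-positive gates against the mScarlet-negative gates it was -2.30 (SE 0.72, adjusted p = 0.061), the lowest adjusted p of any member in any comparison. Over its 26 alternatives this adjusted p ran from 0.00182 to 0.127, and it passed in 6 of them. In GFP vs DN the log2 fold change of Mrc1 was 0.93 (SE 0.98), and -0.49 without GFP 1.

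Of the 3 lipid-associated genes, Apoe and Gpnmb were higher in GFP 4 than in any DN library, and Trem2 was not. Apoe, the apolipoprotein that macrophages secrete, had 4905, 1802, 979 and 5059.7 CPM in DP and 12049.6, 2809, 2324 and 1945 CPM in GFP, against 291, 149.7, 79.8 and 1328 CPM in mScarlet and 1561, 169.7, 593 and 209 CPM in DN. Every GFP library exceeded every DN and every mScarlet library. For Apoe the fitted difference on the log2 scale was 2.95 (SE 1.04, adjusted p = 0.44) in GFP vs DN, 2.76 (SE 1.03) in DP vs mScarlet and 3.38 (SE 1.06, adjusted p = 0.11) in GFP vs mScarlet. Without GFP 1 it was 1.90 in GFP vs DN and 2.35 in GFP vs mScarlet. Gpnmb, a lysosomal glycoprotein of lipid-laden macrophages that is also made by melanocytes, osteoclasts and some stromal cells, had 66.8, 23.0, 10.7 and 49.8 CPM in DP and 93.0, 28.4, 23.7 and 48.8 CPM in GFP. It had 1.22, 0.723, 0 and 14.1 CPM in mScarlet and 5.60, 0.633, 1.495 and 10.1 CPM in DN. GFP lay above DN and above mScarlet without overlap, and DP above DN. The log2 fold change of Gpnmb was 3.46 (SE 1.38) in GFP vs DN and 2.91 without GFP 1, and 3.20 (SE 1.36) in DP vs mScarlet and 3.07 (SE 1.35) in DP vs DN. Trem2, a lipid receptor that signals through TYROBP, had 8.57 to 36.7 CPM in DP, 11.7 to 119 CPM in GFP, 0.476 to 9.38 CPM in mScarlet and 0.644 to 15.4 CPM in DN, with a log2 fold change of 3.08 (SE 1.19) in GFP vs DN and 1.67 without GFP 1.

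The monocyte and adhesion receptors ranged from nearly absent to abundant. Ccr2, the receptor that draws monocytes from blood, was at 0 in 5 libraries and reached 3.14 CPM in GFP 1 and 2.43 CPM in mScarlet 1. Cx3cr1, the fractalkine receptor, had 0.0258 to 25.3 CPM and an antisense overlap with Gm33858. Itgam, which encodes CD11b, had 366 CPM in GFP 1, 57.6 CPM in DP 1 and 50.9 CPM in DN 1, and 2.65 to 14.3 CPM in the others, and it shares exonic sequence with Gm49368 on the same strand. Cd14, the co-receptor for bacterial lipopolysaccharide, was abundant throughout and had 1109 to 1618 CPM in DP, 697 to 2050.3 CPM in GFP, 846 to 1385 CPM in mScarlet and 807 to 1146 CPM in DN libraries. The range of Cd14 over all 16 libraries was 2.94-fold, and its log2 fold change in GFP vs DN was 0.53 (SE 0.26), and 0.22 without GFP 1.

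The lysosomal and antimicrobial genes included Lyz2, Cd68 and 3 further members. Lyz2, the macrophage lysozyme, had 2949.98, 513, 381 and 1340.2 CPM in DP and 10903, 759, 763 and 143 CPM in GFP, against 257, 76.2, 55.0 and 296 CPM in mScarlet and 1342, 62.1, 197 and 38.5 CPM in DN. Its highest and lowest libraries were 283-fold apart, and the lowest DP library exceeded the highest mScarlet library. On the log2 scale the fitted difference of Lyz2 was 2.99 (SE 1.40) in GFP vs DN but 0.44 without GFP 1, and 2.90 (SE 1.39) in DP vs mScarlet. Lyz1, a near-identical paralog that may share reads with Lyz2, had 1.69 to 602 CPM. Cd68, a glycoprotein of late endosomes, had 168, 72.2, 49.9 and 145 CPM in DP and 564, 83.4, 93.5 and 41.0 CPM in GFP, against 27.5, 25.2, 17.5 and 49.4 CPM in mScarlet and 64.7, 21.5, 31.7 and 18.4 CPM in DN. GFP 4 lay below DN 1 and above the other DN libraries. The log2 fold change of Cd68 was 2.56 (SE 0.76) in GFP vs DN, 1.85 (SE 0.74) in DP vs mScarlet and 2.20 (SE 0.53, adjusted p = 0.24) over both GFP-positive gates. The value of Cd68 in GFP vs DN was 1.09 without GFP 1. Ctss, a protease that trims the class II chaperone, had 5.43 to 792 CPM, Cybb, the catalytic chain of the phagocyte oxidase, 0.646 to 61.4 CPM, and Mpeg1, the pore-forming perforin-2, 0.267 to 25.6 CPM.

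The MHC class II genes were abundant in every library. Cd74, the invariant chain that escorts class II molecules, had 7145, 6607, 4556 and 7899.7 CPM in DP and 7666, 5133, 5602 and 3257 CPM in GFP, against 5537, 5026, 3762 and 6339.7 CPM in mScarlet and 3388, 3878, 3927 and 3550.5 CPM in DN. All DP libraries exceeded all DN libraries, and the DN libraries were the closest to each other, with a mean of 3686 ± 259 CPM (SD, n = 4). The log2 fold change of Cd74 was 0.84 (SE 0.23, adjusted p = 0.075) in DP vs DN, 0.58 (SE 0.23) in GFP vs DN (0.34 without GFP 1) and 0.33 (SE 0.23) in DP vs mScarlet. H2-Aa, H2-Ab1 and H2-Eb1, the alpha and beta chains of the presenting molecules, averaged 906 ± 281, 1532 ± 392.5 and 854 ± 188 CPM in DP libraries (SD, n = 4). In DN libraries they averaged 541 ± 74.3, 1006 ± 239 and 545 ± 42.3 CPM. In mScarlet 3, where the 24 myeloid-restricted genes summed to 157 CPM, the 4 class II genes still summed to 5409 CPM. Per kilobase of exon, Cd74 had the highest median level of the 34 genes (3025 CPM per kb), followed by Apoe (676) and Cd14 (675), and Ccr2 the lowest (0.0121).

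The level of each gene relative to the geometric mean of the C1q chains showed which genes kept one proportion over libraries and which did not. These ratios are a description, since all genes of a library share its RNA. Lyz2 stayed at 2.04 to 5.19 times C1q in all 16 libraries. Csf1r stayed at 0.267 to 0.95 and Ctss at 0.268 to 0.754 times C1q. Apoe was 4.46 to 11.9 times C1q in 15 libraries and 41.9 times in GFP 4. Gpnmb was 1.05 times C1q in GFP 4 and 0.583 times in DN 4, against 0.118 or less elsewhere, and the fibroblast sum was 15438 CPM in GFP 4, 2189 CPM in DN 4 and 2393 CPM in GFP 2. Mrc1 was 0.0621 to 0.649 times C1q in DN libraries and at most 0.0456 in the other groups. Cd74 was 2.84 times C1q in GFP 1 and 276 times in mScarlet 3, and Cd14 was 0.759 and 83.2 times C1q in the same libraries.

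**Figure D4:**
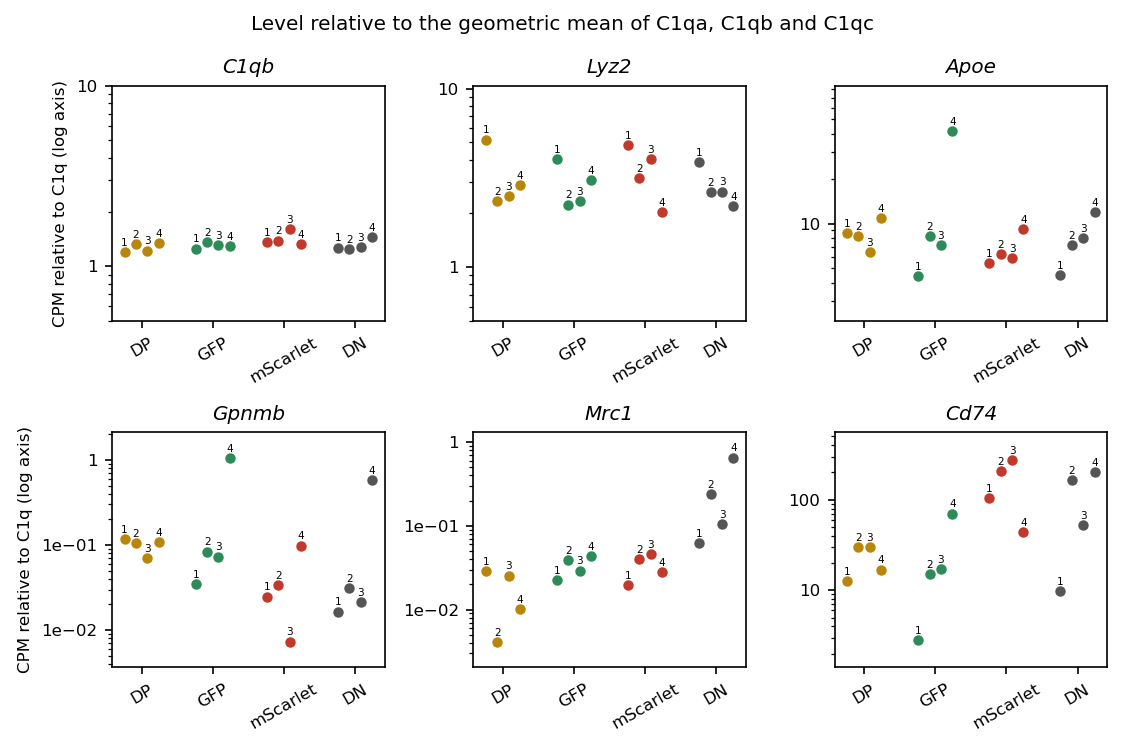
Level of 6 members divided by the geometric mean of C1qa, C1qb and C1qc in the same library, on log axes, for DP, GFP, mScarlet and DN libraries (numbered points). C1qb is part of its own divisor, so its nearly flat ratio is partly fixed in advance. Lyz2 runs from 2.04 to 5.19. The axes differ between panels and are widened for C1qb and Lyz2. Apoe and Gpnmb stand out in GFP 4, Mrc1 is highest in DN, and Cd74 is lowest in GFP 1 and highest in mScarlet 3.

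In the comparisons between other pairs of gates, edgeR with the group as the only term again called 0 members, with different backgrounds. In GFP vs mScarlet all 34 genes were positive (51.1% of all genes) with a median of 2.83, and 26 had an unadjusted p under 0.05 (12% of all genes in that direction), beside 1.53% of all genes called. Without GFP 1 the median was 1.57 with 29 positive. Cd163, Apoe, Trem2 and Gpnmb did not overlap there (5.16% of all genes were apart in that direction), and DESeq2 called 17 members (10.3% of all genes) and limma voom 1, Apoe (0.708%). With the library number as a block, edgeR called 5, Mrc1, Cd163, Apoe, Trem2 and Gpnmb (7.45%). The labels do not say what a number marks. The fitted values in GFP vs mScarlet were 3.77 for Mrc1 (SE 1.08), 5.23 for Folr2 (SE 1.49) and 2.72 for Cd68 (SE 0.77), on the log2 scale. Without GFP 1 they were 2.38 for Mrc1, 3.28 for Folr2 and 1.28 for Cd68. In DP vs DN 33 were positive (51.8% of all genes), all but Mrc1, with a median of 1.62 and 8 at an unadjusted p under 0.05 (6.89%), beside 2.32% of all genes called. Without DN 1 the median was 2.81. Without overlap in DP vs DN were Ptprc, F13a1, Pf4, Gpnmb, Mpeg1 and Cd74 (5.46% of all genes). DESeq2 called Pf4 and Cd74 (6.74%), and limma voom called 7 members (5.79%).

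Where only the mScarlet reporter differed, the members leaned lower or were mixed. In mScarlet vs DN 8 of 34 were positive (49.7% of all genes) with a median of -0.36, and 1.18% of all genes were called. Without DN 1 the median was 0.58, with the opposite sign, and without mScarlet 4 it was -0.95. In DP vs GFP 5 were positive (47% of all genes) with a median of -0.84, beside 0.564% of all genes called, and without GFP 1 the median was 0.57. In DP vs GFP the fitted log2 value of C1qb was -1.31 (SE 1.15), and 0.49 without GFP 1. That of Csf1r was -1.72 (SE 1.31), and 0.43 without GFP 1. Over both mScarlet-positive gates 7 of 34 were positive (47.9% of all genes) with a median of -0.54, and 8.73% of all genes were called in that comparison, the largest share of the 9. Without GFP 1 the median was 0.11 with 21 positive, without DN 1 it was -0.12 with 14, and without mScarlet 4 it was -1.06. DESeq2 and limma voom each called 1 member there, Mrc1, beside 15.1% and 9.11% of all genes. At an unadjusted p under 0.05 this comparison had 1 member higher, Cd74, and 2 lower, Mrc1 and Cd163 (24% of all genes in either direction). Comparisons that share a gate share its libraries, so their values are not independent of each other.

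Lists outside the 34 differed in how they leaned. Of 40 other myeloid genes, 40 were positive in GFP vs DN (median 2.25) and 40 in DP vs mScarlet (median 1.76), and 0 were called in either. Without GFP 1, 30 of the 40 were positive in GFP vs DN, with a median of 0.35. In GFP vs mScarlet, where 1.53% of all genes were called, 3 of the 40 were called higher and the median was 2.93, and without GFP 1 it was 0.99 with 1 called. Clec10a, a galactose lectin, had a log2 fold change of 4.22 (SE 0.92, adjusted p = 0.037), Stab1, a scavenger receptor, 4.02 (SE 0.94, adjusted p = 0.0495), and Cbr2, a carbonyl reductase, 3.68 (SE 0.69, adjusted p = 0.027). In 16 fits that each left out 1 library, Clec10a was called in 9, Stab1 in 4 and Cbr2 in 13. Limma voom called Cbr2 (adjusted p = 0.030), but not Clec10a (0.088) or Stab1 (0.082). Without GFP 1 the values were 3.19 for Clec10a, 2.29 for Stab1 and 2.61 for Cbr2. The most abundant of the list, Rac2, Itgb2, Sirpa and Clec4n, reached 254.5, 891, 601 and 370.3 CPM in GFP 1. None of the 9 genes of class II regulation and peptide loading was called in GFP vs DN (5 positive, median 0.01) or DP vs DN (7 positive, median 0.40), and H2-DMb1, a peptide editor, had 246 to 432 CPM over all libraries. Of 16 macrophage state genes, 0 were called in GFP vs DN (11 positive, median 0.43, and 0.051 without GFP 1) or DP vs mScarlet (14 positive, median 0.25), and Spp1, Selenop, Tnf and Il1b, the most abundant, are also made by other cells.

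Among 15 growth factors and attractants of macrophages, Ccl7 rose in GFP vs mScarlet, with a log2 fold change of 4.96 (SE 1.04, adjusted p = 0.037). Ccl7, a monocyte chemokine, had 189, 21.3, 34.6 and 249 CPM in GFP and 2.37, 1.72, 1.76 and 9.97 CPM in mScarlet. It was called in 9 of the 16 fits that left out 1 library, and its value was 4.69 without GFP 1 and 4.37 without GFP 4. Limma voom did not call Ccl7 (adjusted p = 0.082). Over both mScarlet-positive gates, where 8.73% of all genes were called, 2 of the 15 rose and 2 fell. Ccl20 rose by a log2 fold change of 0.96 (SE 0.25, adjusted p = 0.027), at 46.7 ± 12.8 and 59.4 ± 19.9 CPM in DP and mScarlet and 25.1 ± 11.7 and 29.4 ± 11.4 CPM in GFP and DN (SD, n = 4 each). Cx3cl1, the ligand of CX3CR1, rose by 0.57 (SE 0.16, adjusted p = 0.039). Mif fell, with a log2 fold change of -0.82 (SE 0.20, adjusted p = 0.018), and was called in all 16 fits that left out 1 library. Cxcl12 fell, with -6.58 (SE 1.65, adjusted p = 0.026), and had 234 CPM in GFP 4, without which the value was -4.68. Of the same 16 fits, Ccl20 was called in 10, Cx3cl1 in 5 and Cxcl12 in 9. Limma voom did not call Cxcl12 (adjusted p = 0.145), and DESeq2 gave it no adjusted p. Limma voom called Ccl20, Cx3cl1 and Mif (adjusted p = 0.035, 0.031 and 0.0048). In the same comparison 8 of 15 fibroblast markers were called lower, with a median of -3.88, and 7 without GFP 4 (median -3.23), and their part in the value of Cxcl12 was not tested.

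Markers of other cell types moved with some of these values. In GFP vs DN, fibroblast markers were positive in 15 of 15 (median 2.26), acinar markers in 17 of 17 (median 4.46) and erythroid markers in 5 of 5 (median 3.67), none called. Without GFP 1 the erythroid markers were positive in 0 of 5 (median -0.89), and without GFP 4 the medians were 0.33 for fibroblast and 1.55 for acinar markers. In GFP vs mScarlet, fibroblast markers were positive in 15 of 15 (median 6.02, 5 called), endothelial markers in 12 of 12 (median 2.36), acinar markers in 17 of 17 (median 4.43) and erythroid markers in 5 of 5 (median 4.13). Without GFP 4 the fibroblast median there was 4.50 with 2 called, the acinar median 1.53 and the endothelial median 1.74, and without GFP 1 the erythroid median was -0.48. In DP vs mScarlet the counts were 14 of 15 for fibroblast (median 1.45), 1 of 17 for acinar (median -2.30) and 5 of 5 for erythroid markers (median 1.41). The erythroid sum, led by Hba-a1, was highest in GFP 1, DP 1 and DN 1 (4611, 642 and 292 CPM), the libraries with the highest myeloid-restricted sum of their gates (14922, 3330.4 and 2080.3 CPM). In mScarlet 4, which had the highest myeloid-restricted sum of its gate (912 CPM), the erythroid sum was 0.152 CPM. The highest erythroid sum of that gate was in mScarlet 1 (206 CPM), where the myeloid-restricted sum was 441 CPM. Library 1 thus had the highest erythroid sum in every gate. In library 4 this sum was 0.0567 CPM in DP, 4.77 CPM in GFP and 0.579 CPM in DN. The neutrophil sum was 162.7 to 575 CPM in GFP and 79.2 to 948 CPM in DN, and 3 of 14 neutrophil markers were positive in GFP vs DN. Dendritic cell markers summed to 10.6 to 44.1 CPM and lymphocyte markers to 6.33 to 57.3 CPM in any library, with 1 to 5 of the 9 and 1 to 10 of the 16 genes at 0. Over both mScarlet-positive gates, 1 of 6 mast cell and 2 of 12 epithelial markers were called higher. There, 2 of 17 acinar and 1 of 15 lymphocyte markers were called lower, beside 8.73% of all genes. The same mast cell marker was called higher in mScarlet vs DN (1.18% of all genes) and DP vs DN (2.32%). In each of mScarlet vs DN and DP vs GFP (0.564%), 1 of 15 fibroblast markers was called lower. The part of these cells in the levels of the 34 genes was not tested.

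**Figure D5:**
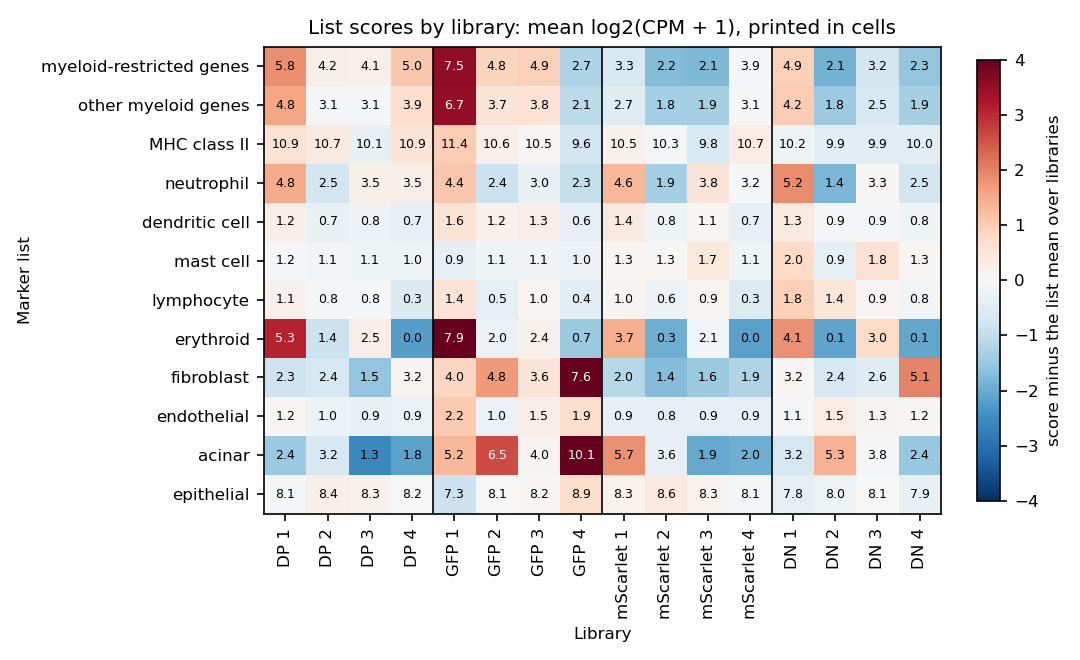
Score of each marker list (mean log2(CPM + 1), printed in the cells) in each library, coloured by its distance from the list's mean over libraries. The myeloid-restricted and other myeloid rows share their pattern, with GFP 1 at 7.5 and 6.7, the erythroid row is also highest in GFP 1, and fibroblast and acinar rows peak in GFP 4.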

How the data were processed

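Bulk RNA-seq was measured in 16 libraries of 4 sorted groups. The deposited values are the authors' read counts per gene, as whole numbers and not normalized. In the submitters' processing notes the build GRCm38 (mm10) and the tools STAR and DESeq2 1.24.0 appear, with no role stated. The sources used here name no counter, annotation or strand setting. Full-length cDNA was amplified from low input, per the labels' protocols, so counting floors cover counting error only. Of 24467 Entrez identifiers, 24437 matched a RefSeq symbol, and 30 others held 0.72% to 1.93% of the counts.

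All 16 libraries were fitted in edgeR 4.0.16 (R 4.3.3) by quasi-likelihood with robust estimation, the group as the only term, TMM scaling and edgeR's expression filter, and called at a Benjamini-Hochberg adjusted p under 0.05. The fit was also run on simulated counts drawn independently for each library. Those held no library like GFP 1 or GFP 4, so they do not bear on the results above. Alternatives were other scaling and filters, DESeq2 1.42.0, limma 3.58.1 voom with quality weights, the library number as a block, and libraries left out. No 2 replicates agreed within sampling noise (lowest chi-square per degree of freedom 91.8). The p-values set each difference against the spread between libraries of a group. In the main fit this spread includes any part tied to the library number. Scores used log2(CPM + 1), and ratios to C1q a pseudocount of 0.1 CPM. Exon lengths and overlaps came from GENCODE M21.

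All 34 genes are named, and of other lists up to 4 of the most abundant genes, with any gene of the other myeloid, class II, state and attractant lists called in a comparison described. Calls among markers of other cell types are given as counts. Timd4, Vsig4, Lyve1 and other genes outside this rule were chosen after their values were seen. The genes and lists were chosen with earlier results of these data known.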

Additional observations from a re-analysis of the deposited data

Results flagged for a closer look

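Of 140 groups of 4 libraries checked for a library far from the other libraries of its gate, 5 had one, where chance at 1 in 20 gives 7. Cd163 was at 3.06 CPM in DN 1, against 0 to 0.0982 CPM in the other DN libraries. Ccr2 was at 2.43 CPM in mScarlet 1, against 0 to 0.0869 CPM in the other mScarlet libraries, and at 0.876 CPM in DN 1, against 0 to 0.0764 CPM in the other DN libraries. Itgam was at 57.6 CPM in DP 1, against 8.16 to 9.87 CPM in the other DP libraries. H2-Ab1, a class II chain, was the only low value, at 950.5 CPM in DP 3, against 1651 to 1801 CPM in the other DP libraries. The causes were not tested.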

How the results depend on the processing

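The count of members called by edgeR was 0 in all 9 comparisons, and stayed 0 with other size factors, upper-quartile factors, no filter and no robust estimation. DESeq2 called 3 in GFP vs DN, 15 over the GFP-positive gates, 1 in mScarlet vs DN, 1 over the mScarlet-positive gates, 2 in DP vs DN and 17 in GFP vs mScarlet. Limma voom called 1 over the mScarlet-positive gates, 7 in DP vs DN and 1 in GFP vs mScarlet. In DP vs DN a stricter filter gave 1 (of 397 genes called) and the 2 groups alone 1 (of 578). Leaving out GFP 1 and GFP 4 together gave 2 there (of 761). Leaving out 1 library at a time gave 0 to 1 over the mScarlet-positive gates. This was Mrc1, without DP 1 (of 922 genes called), GFP 4 (of 1185) or mScarlet 4 (of 1476). In DP vs DN it gave 0 to 2, Pf4 and Cd74 without GFP 1 (of 532) and Cd74 without GFP 4 (of 493). In GFP vs mScarlet it gave 0 to 2, Gpnmb and Mpeg1 without mScarlet 4 (of 322), and it gave 0 in the other 6. The score over the myeloid-restricted members alone was 4.78 in DP, 2.87 in mScarlet and 3.13 in DN libraries. With 1 library left out, the DP score was 5.80 to 6.35 and the GFP score 5.51 to 6.91, and those of mScarlet and DN were 3.96 to 4.56 and 3.98 to 4.80.

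Of 1420 alternative log2 fold changes of 53 results, 1294 kept direction and side of the threshold, 37 newly passed it, 80 no longer passed it and 9 turned sign. These were Mrc1 in GFP vs DN (-0.49 without GFP 1, -0.019 without GFP 1 and GFP 4, -0.47 without GFP 1 and DP 1), Spi1 in GFP vs DN (-0.091 without GFP 1, -0.065 without GFP 1 and DP 1), Csf1r in DP vs GFP (0.43 without GFP 1) and C1qb in DP vs GFP (0.49 without GFP 1, 0.0016 without GFP 1 and GFP 4, 0.21 without GFP 1 and DP 1). With 1 library left out at a time, these ran from -0.49 to 1.44 for Mrc1, -0.091 to 3.29 for Spi1, -2.48 to 0.43 for Csf1r and -1.68 to 0.49 for C1qb. The causes were not tested. The fit without robust estimation and the one without GFP 1 and DP 1 were chosen after seeing the data.

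With the library number as a block, 2 members were called over the GFP-positive gates (Trem2 and Gpnmb, of 80 genes), 1 over the mScarlet-positive gates (Mrc1, of 2297 genes) and 5 in GFP vs mScarlet (Mrc1, Cd163, Apoe, Trem2 and Gpnmb, of 1190 genes), and 0 in the other 6. Libraries with the same number deviated together in 23 of 24 pairs at a correlation over 0.1 (lowest 0.0945, median 0.295). Pairs with different numbers had a median correlation of -0.137 (-0.402 to 0.200). For 11 of 16 libraries, the best-correlated library in every other gate carried the same number. This is a hint from the data and not the design, since the labels do not say what a number marks.

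The counts were deep (80647185 or more per library), so the precision is limited by the spread between the 4 libraries of a group and, for Ccr2 and Cd163, by few counts.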

Other observations

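GFP 1, the library with the most myeloid RNA, also held the highest levels of genes of resident tissue macrophages outside the 34, chosen here after their values were seen. This is not particular to resident-type genes, since GFP 1 was highest for 32 of the 34, with Ccr2, Cx3cr1 and Itgam among them. Timd4, a receptor for phosphatidylserine on dying cells, had 70.3 CPM in GFP 1, 15.1 CPM in DP 1 and at most 2.48 CPM in the other libraries. Vsig4, a complement receptor of resident macrophages, had 98.2 CPM in GFP 1 and at most 7.07 CPM elsewhere. Lyve1, a hyaluronan receptor of perivascular macrophages and lymphatic endothelium, had 49.8 CPM in GFP 1 and at most 7.42 CPM elsewhere. Endothelial markers summed to 78.3 CPM in that library and to 13.2 to 42.7 CPM in the others.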
